A study of Mus musculus with 4 samples.

Results

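The sites described here are the genomic positions at which FoxP3 was found in both cultures that carried it and at which RNA polymerase II (Pol II) was found as well. They were defined from 3 deposited peak lists as peaks of the FoxP3+GATA1 list that share at least 1 bp with a FoxP3 alone peak and at least 1 bp with a Pol II peak, leaving out peaks that score 3000 or more in the FoxP3+GATA1 list. This gave 2499 sites among the 9011 peaks of that list, or 27.7%. They are called triple sites below. They overlapped 2501 of the 5069 FoxP3 alone peaks (49.3%) and 2510 of the 17632 Pol II peaks (14.2%).

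All samples came from lymph node primary CD4+ conventional T cells (Tconv) of C57BL/6 mice aged 6 to 8 weeks, activated with beads against CD3 and CD28 in 20 U/ml of human IL-2. One culture received FLAG-FoxP3 together with GATA1 and another FLAG-FoxP3 without GATA1, and both were precipitated with the anti-FLAG antibody M2. Pol II was precipitated with the antibody N20 from a culture that its title and its factor label place with FLAG-FoxP3 and GATA1, although its description speaks of activated CD4 cells without a factor. A whole cell extract, labelled with no introduced factor, served as the sequencing control of every list. Each of the 4 samples is 1 library, so no difference between cultures has a replicate check. FoxP3 was supplied from outside in all precipitated cultures for which the labels name a factor, and precipitation with anti-FLAG from cells without FLAG-FoxP3 was not analysed here. Peak lists hold no expression values, so the labelled cell type could not be set against its marker genes.

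FoxP3 is a forkhead transcription factor that defines regulatory T cells, where it acts as both a repressor and an activator of genes and works together with other DNA-binding proteins. GATA1 is a zinc-finger factor known from red blood cell and megakaryocyte development, and one of the cofactors whose effect on FoxP3 the study asked about. Pol II transcribes protein-coding genes. It gathers at the start sites of active and paused genes, and the design uses it as the marker of such starts. Mouse conventional T cells normally lack FoxP3, and introducing FoxP3 into them is a common model of its action.

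Positions are given with a first base of 1 and in the build of the lists, which is uncertain. The labels give mm8, yet a Pol II peak on chromosome 7 ends at 152430305, a coordinate higher than mm8 is generally known to have there. Genes, annotated features and DNA sequence at these positions were therefore not analysed here. A peak's score is the caller's own value, deposited by the authors, and depends on the depth of a library, which is unknown. It was read only as a rank within a list, as the percentage of peaks of the list that score no higher (its percentile). Intervals in brackets are 95% intervals that cover counting error over peaks, not variation between cultures. Peaks within a library are not replicates.

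Seen from the FoxP3+GATA1 list, the triple sites were nearly all simple stacks of 1 peak from each list. In 2473 of the 2499 (99.0%), the FoxP3+GATA1 peak overlapped 1 FoxP3 alone peak and 1 Pol II peak. Neither of these partners overlapped another FoxP3+GATA1 peak. Overlaps of a FoxP3 alone partner with further Pol II peaks, or the reverse, were not counted. A Pol II partner was split in 2 at 12 sites and a FoxP3 alone partner at 3. All 3 peaks had bases in common at 2495 sites. The common stretch had a median of 413 bp (406 to 421) and quartiles of 387 and 516.5 bp, within a combined span of 839 bp (825 to 849). Where several partners were available, the one sharing the most bases was used.

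The rule's edges were sparsely filled. The highest triple site scored 2587 and the lowest peak left out by the upper limit of 3000 scored 3100, with none between. A score of 3100 is also the highest in the FoxP3 alone and Pol II lists, where peaks at that score are tied. The FoxP3+GATA1 list runs to 3233. That limit removed 30 of 2529 peaks. The 3 sites just under it lay at chr10:116495336-116495833 (score 2587), chr2:163468125-163469374 (score 2474) and chr12:70709034-70710121 (score 2341). At the other edge, the smallest overlap with a Pol II partner was 100 bp and with a FoxP3 alone partner 23 bp, and only 6 sites shared fewer than 100 bp with the latter. The 3 with the least shared sequence had 23, 30 and 35 bp in common with their FoxP3 alone partners and lay on chromosomes 10, 12 and 5. Just outside were shared FoxP3 peaks that missed a Pol II peak by 5, 12 and 33 bp, on chromosomes 3, 5 and 4. The lowest-scoring triple sites had FoxP3+GATA1 scores of 71.8, 74.3 and 78.9.

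Triple sites stood in the upper part of all 3 rankings, but not uniformly so. Their median percentile was 74.6 (73.1 to 75.9) in the FoxP3+GATA1 list, 64.8 (62.8 to 66.4) in the FoxP3 alone list and 79.5 (78.2 to 80.8) in the Pol II list. The lowest scores of these lists were 70.6, 70.8 and 50.0 in that order. The Pol II list thus reaches lower scores, and the 3 percentiles are not on one scale. By score the medians were 267.4 (quartiles 190.7 and 377.8), 481.4 (quartiles 384.8 and 625.6) and 186.4 (quartiles 130.2 and 281.0), against 195.2, 425.5 and 117.6 over the whole lists. Sites above the median of every list numbered 1211 (48.5%), and 211 (8.44%) were in the top decile of every list. At the other end, 179 (7.16%) were at or below the median of every list and 315 (12.6%) fell in the lowest decile of at least 1 list. Recovery in all 3 lists thus did not exclude a weak peak in 1 of them. Peaks of the lowest decile were nonetheless at a triple site less often than the whole list. The shares were 12.3% against 27.7% (FoxP3+GATA1), 40.1% against 49.3% (FoxP3 alone) and 4.48% against 14.2% (Pol II). Shares expected from unrelated rankings were not computed.

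The 10 sites with the best standing, ordered by the lowest of their 3 percentiles, were led by a site at chr17:4625899-4626932. It ranked 44 in the FoxP3+GATA1 list with a score of 2064 and reached 3100, the highest score, in both other lists. Next came chr2:163468125-163469374, with scores of 2474 (FoxP3+GATA1), 2405 (FoxP3 alone) and 2120 (Pol II), where the 3 centres lay within 17.5 bp of the FoxP3+GATA1 centre. A site at chr5:102643464-102644058 ranked 77, 34 and 69 in the 3 lists in that order. Ranks of 79, 35 and 37 belonged to chr12:3109314-3110617. These 4 were ahead of the others in that each was above percentile 99.1 of every list. The remaining 6 lay at chr6:132413560-132414052 and chr6:10135867-10136736, at chr11:30788115-30788825 and chr11:5910899-5911952, at chr1:173419539-173420344 and at chr5:114622879-114623567. Their FoxP3+GATA1 scores ran from 907.6 to 1639 and their Pol II scores from 987.8 to 2216.

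The 3 scores rose together across the triple sites. Spearman's rho was 0.48 between the FoxP3 lists, 0.48 between FoxP3+GATA1 and Pol II and 0.45 between FoxP3 alone and Pol II, with Pearson's r of the log10 scores of 0.44, 0.51 and 0.47 (n = 2499 sites each). These are descriptions, since the lists share the extract as their control and local features of the genome. A FoxP3 score thus followed the Pol II score about as closely as it followed the other FoxP3 score. Among the 1949 peaks found only with GATA1 and at Pol II, rho between FoxP3+GATA1 and Pol II was 0.32 and r 0.36. In the 640 peaks shared by the FoxP3 lists without Pol II, rho between the FoxP3 lists was 0.41 and r 0.48. In these 640 peaks rho was lower than at triple sites but r was higher, so the order depended on the coefficient.

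**Figure D1:**
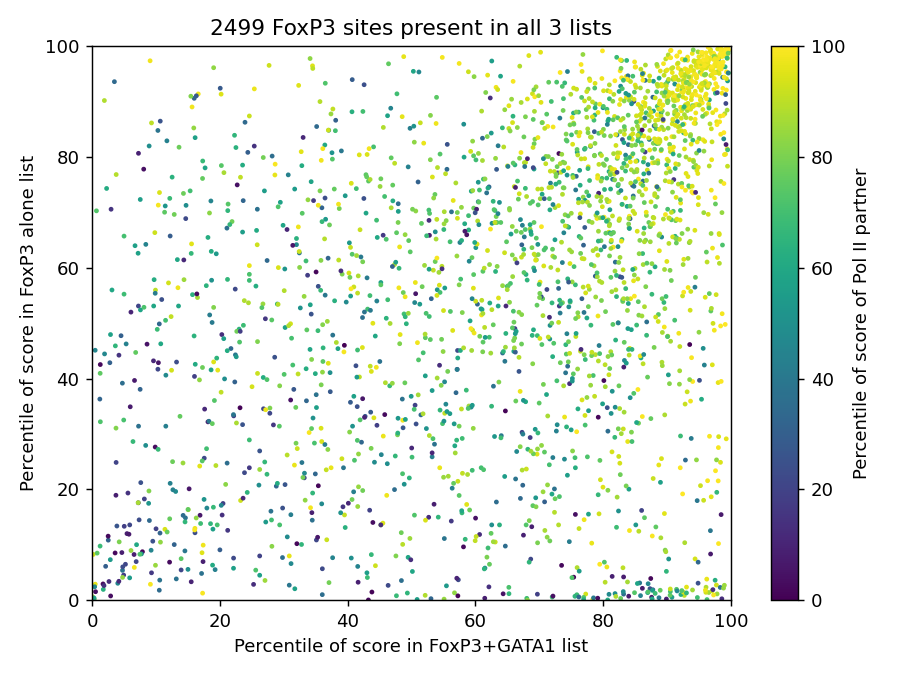
Each point is 1 of the 2499 triple sites, placed by the percentile of its score in the FoxP3+GATA1 list (x axis) and of its partner in the FoxP3 alone list (y axis), with the colour giving the percentile of the Pol II partner. Sites high in both FoxP3 lists mostly have a high Pol II percentile, and a separate band lies at the bottom right, high with GATA1 and at the bottom of the FoxP3 alone list.

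Divided into quintiles of FoxP3+GATA1 score, the triple sites had partners of steadily higher standing. In the lowest quintile (scores 71.8 to 177.0) the median percentile of the FoxP3 alone partner was 41.6 (38.1 to 45.0) and that of the Pol II partner 59.5 (56.2 to 63.7). In the highest quintile (scores 412.3 to 2587) they were 89.4 (88.1 to 90.9) and 94.7 (93.8 to 95.2). A Pol II partner from the top decile of its list was present at 13.8% of sites of the lowest quintile and 66.4% of the highest. Peak width rose from a median of 592 to 755.5 bp in the FoxP3+GATA1 list and from 647.5 to 770.5 bp for Pol II over these quintiles. In the FoxP3 alone list it began at 560.5 bp, fell to 522.5 bp in the fourth quintile and ended at 560 bp.

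**Figure D2:**
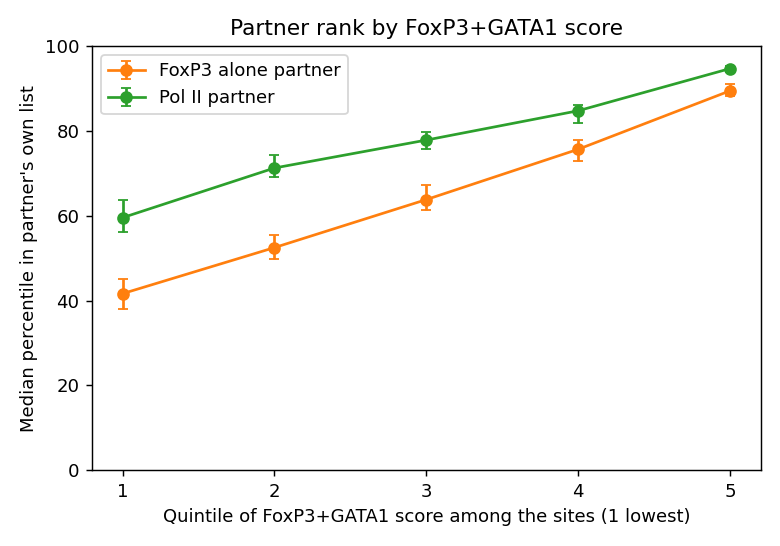
Median percentile of the FoxP3 alone partner (orange) and the Pol II partner (green), each within its own list, for quintiles of the FoxP3+GATA1 score among the triple sites. Bars are 95% order-statistic intervals, and both medians rise at every step, from 41.6 to 89.4 and from 59.5 to 94.7.

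The percentiles of most triple sites in the 2 FoxP3 lists lay within 25 points of each other. The lists differ in length, and shared peaks make up a smaller share of the longer FoxP3+GATA1 list, so percentiles in the 2 lists are not on one scale and their difference shows no change between the cultures. A percentile at least 25 points lower in the FoxP3 alone list was found at 538 sites (21.5%), against a background of 21.9% over all 3171 FoxP3+GATA1 peaks shared with that list. One at least 25 points higher was found at 272 sites (10.9%), against 11.5%. The triple sites themselves make up most of that background. Among the 640 peaks shared without Pol II, 24.5% were at least 25 points lower and 14.5% at least 25 points higher. The share at least 25 points higher was 3.65 points lower at triple sites than at these peaks (interval of the difference -6.81 to -0.82), while the interval for the share at least 25 points lower, -6.82 to 0.58 points, included 0. The limit of 25 points was chosen after the data were seen.

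The 5 sites named for the lowest FoxP3 alone percentile relative to the FoxP3+GATA1 percentile are given as a description of the 2 lists. The site at chr2:91933372-91934379 had a score of 909.6 at percentile 98.6 with GATA1. Its partner without GATA1 scored 79.5 at percentile 0.26, and its Pol II score was only 77.4, at percentile 13.0. A site at chr4:70038952-70039520 had percentiles of 97.3 with GATA1 and 0.95 without, and a Pol II partner at percentile 98.8. The other 3 lay at chr17:68090525-68091412, chr3:148715265-148716299 and chr5:148422471-148423518, with Pol II percentiles of 83.6 to 84.9. Pol II percentiles, which the choice did not use, thus ran from 13.0 to 98.8 over the 5 sites.

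In the opposite direction, at chr1:64783973-64784562 the percentile was 3.48 with GATA1 and 93.6 without, and the peak without GATA1 was 1208 bp wide against 590 bp with it. At chr13:69672706-69673284 it was 9.07 and 97.3, with 1118 bp against 579 bp. The next was chr4:34829564-34830162, at 1.91 and 90.2. The last 2, at chr9:77771806-77772395 and chr2:91864010-91864584, were at percentiles 96.1 and 86.1 without GATA1. In each of these 5 the FoxP3+GATA1 peak was between 575 and 599 bp wide, close to the median of 589 bp of its whole list. In 4 of the 5 the peak without GATA1 was the wider one.

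The very bottom of the FoxP3 alone list held many sites of high rank with GATA1. Its lowest 5% of peaks, with scores of 70.8 to 260.5, held a triple site more often than the peaks just above them: 131 of 256 (51.2%, 45.1 to 57.2) against 72 of 250 (28.8%, 23.5 to 34.7) in the next 5%. The 131 triple sites whose partner was in this lowest 5% had a median FoxP3+GATA1 percentile of 77.0 (65.3 to 83.2), and 55.0% of them (46.4 to 63.2) were above percentile 75. For the 71 whose partner was in the next 5%, the median was 29.8 (17.4 to 47.6) and the share above percentile 75 was 18.3% (11.02 to 28.8). From there upwards the median climbed with the FoxP3 alone percentile, from 44.0 between percentiles 10 and 20 to 92.7 above 90. The lowest 5% of the FoxP3 alone list was therefore out of order with the rest of that list when read against the other culture. Its Pol II partners were at a median percentile of 57.2 (46.3 to 65.5), against 53.6 (44.7 to 66.8) in the next 5%, so no such break was seen for Pol II. Medians of width for these lowest sites were 725 bp with GATA1 and 566 bp without. The divisions at 5% were chosen after this band was seen, and its cause was not tested.

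Over the whole FoxP3 alone list, the share of peaks at a triple site ran from 40.1% (35.9 to 44.4) in the lowest decile to 28.2% (24.5 to 32.3) in the third and 79.9% (76.2 to 83.1) in the highest. In the FoxP3+GATA1 list, peaks of 3000 or more left out, it rose from 12.3% (10.3 to 14.6) in the lowest decile to 62.6% (59.4 to 65.8) in the highest.

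Pol II overlap of shared and unshared FoxP3 peaks was also read at matched FoxP3 score. Within each decile of the FoxP3+GATA1 list, peaks also found with FoxP3 alone were compared with peaks not found there. In the lowest decile 66.9% of the former and 27.9% of the latter overlapped a Pol II peak, a difference of 39.0 percentage points (30.8 to 46.4). In the highest decile the shares were 83.3% and 37.0%, a difference of 46.3 points (39.0 to 53.0). The difference lay between 37.2 and 50.4 points over the 10 deciles. The overlaps compared here are the ones that define the triple sites, so the shares are a description, and all lists were called over the same extract.

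FoxP3 and Pol II peaks were closely centred on one another. The rule requires overlap with both partners, which itself limits the distances, and distances expected by chance were not computed. The median distance from the centre of the FoxP3+GATA1 peak was 83.5 bp (79 to 87) to its Pol II partner and 74 bp (70.5 to 78) to its FoxP3 alone partner, and between the FoxP3 alone and Pol II partners it was 79.5 bp (75.5 to 83). The FoxP3 centre thus lay nearly as close to Pol II as the 2 FoxP3 centres lay to each other. In 2434 sites (97.4%) the FoxP3+GATA1 centre was inside the Pol II partner. The FoxP3+GATA1 peak lay wholly inside its Pol II partner in 760 sites (30.4%, 28.6 to 32.2) and enclosed it in 539 (21.6%, 20.0 to 23.2). Signed offsets of Pol II were balanced around 0: its centre was at the higher coordinate in 50.7% (48.7 to 52.6) and its median offset was 1.5 bp (-2 to 6.5). Those of FoxP3 alone were shifted slightly, with the centre at the higher coordinate in 54.3% (52.3 to 56.2). Their median was 8 bp (2.5 to 13). Without the direction of transcription, an offset up or down a gene could not be read.

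Compared with FoxP3 peaks found only with GATA1 and at Pol II, the triple sites were more tightly centred. Centres lay within 100 bp of the Pol II centre at 58.3% of triple sites and 51.7% of the other peaks, a difference of 6.68 points (3.73 to 9.61). Medians of the distance were 83.5 and 94.5 bp (89.5 to 101). At matched FoxP3+GATA1 score the triple sites had the smaller median in 8 of 10 deciles, but the intervals of the 2 sets were apart in 1 decile only, the sixth, with 62.2 bp (55 to 71) against 87.5 bp (75.5 to 101). The percentile of the Pol II partner was higher for triple sites in 10 of 10 deciles, with intervals apart in 4. In the highest decile it was 94.3 (93.5 to 95.05) against 88.4 (82.8 to 93.3). Over all scores a Pol II partner from the top decile stood at 29.8% of triple sites and 12.0% of peaks found only with GATA1, 17.9 points apart (15.5 to 20.1).

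**Figure D3:**
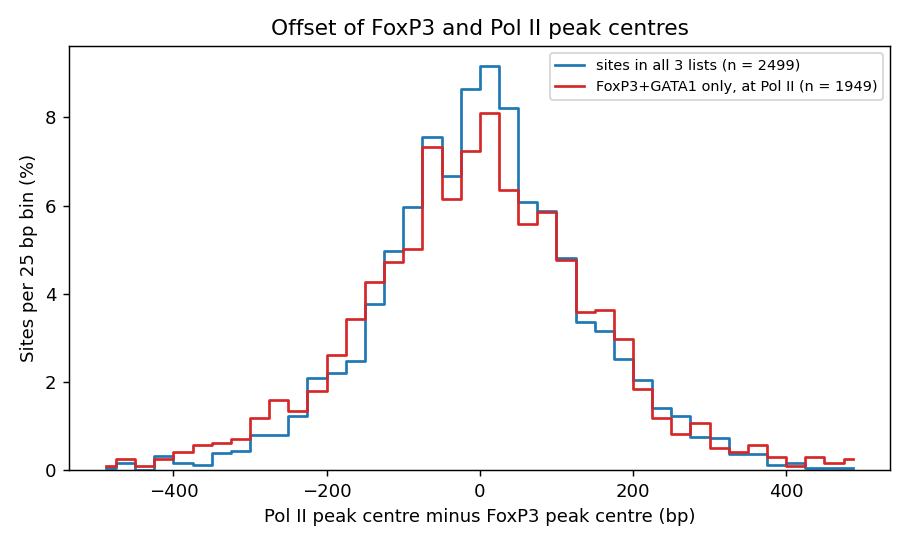
Distribution of the Pol II centre relative to the FoxP3+GATA1 centre, in bins of 25 bp, as a percentage of sites. The 2499 triple sites (blue) and the 1949 FoxP3 peaks found only with GATA1 at Pol II (red) are both centred near 0, and the blue curve is the higher one within 50 bp of it.

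Compared with FoxP3 peaks shared without Pol II, the triple sites ranked higher and were slightly less tightly stacked. The median percentile of the FoxP3 alone partner was 64.8 against 46.9 (43.7 to 50.6), and 16.2% against 7.03% of partners were in the top decile of that list, a difference of 9.18 points (6.53 to 11.5). Distances between the centres of the 2 FoxP3 peaks had medians of 74 bp (70.5 to 78) and 67 bp (59 to 73). Centres within 100 bp were found at 64.1% and 70.5%, which put the triple sites 6.40 points lower (interval of the difference -10.3 to -2.31). The FoxP3+GATA1 peak was wider than its FoxP3 alone partner at 69.7% of triple sites and 66.4% of the others, and the interval of that difference, -0.65 to 7.49 points, included 0.

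Seen from Pol II, stronger peaks held a triple site more often. The share was 4.48% (3.61 to 5.55) in the lowest decile of Pol II score and 42.3% (40.0 to 44.6) in the highest, where 746 of 1763 peaks held one. It was 27.8% in the ninth decile and 9.58% in the sixth, so the step from the ninth to the highest decile was the largest.

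Among the strongest Pol II peaks, the narrow ones nearly all held a triple site and the wide ones mostly did not. In the top decile of Pol II scores, 158 of 185 peaks of 600 bp or less held one (85.4%, 79.6 to 89.8), against 418 of 1336 peaks over 800 bp (31.3%, 28.9 to 33.8). Only 7 of the 185 narrow peaks overlapped no FoxP3 peak of either list, against 563 of the 1336 wide ones. By finer classes the share was 83.6% at 400 bp or less, 86.3% above that and up to 600 bp, 70.2% above 600 and up to 800 bp, 35.4% above 800 and up to 1200 bp and 24.5% beyond. In the lower 90% of Pol II scores the narrowest class was also high, at 109 of 317 peaks (34.4%, 29.4 to 39.8). Peaks over 1200 bp were lowest there, at 8 of 143 (5.59%, 2.86 to 10.7). Only between these ends was the order different. The share rose from 9.11% above 400 and up to 600 bp to 11.2% above 600 and up to 800 bp. It reached 15.1% above 800 and up to 1200 bp. In the whole Pol II list the share was 10.3% above 400 and up to 600 bp and 20.5% above 800 and up to 1200 bp, with the narrowest class again high, at 160 of 378 peaks (42.3%, 37.4 to 47.4). The width classes were chosen after the data were seen.

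The narrow strong Pol II peaks differed from the wide ones in other respects. Of the triple sites with a top-decile Pol II partner, the 158 with a partner of 600 bp or less had another Pol II peak within 5 kb of it in 6.33% of cases (3.47 to 11.3), against 24.9% (21.0 to 29.3) of the 417 with a partner over 800 bp. Intervals of the FoxP3 ranks overlapped: the median FoxP3+GATA1 percentile was 88.9 (87.3 to 91.3) and 86.0 (83.9 to 88.8), and the FoxP3 alone percentile 82.9 (80.2 to 85.7) and 82.7 (78.9 to 85.4). Pol II percentiles were 94.1 (93.6 to 94.7) and 96.6 (96.0 to 97.0). Narrow strong Pol II peaks at triple sites were thus more isolated from other Pol II peaks than wide ones. Between these 2 classes no difference in FoxP3 rank went beyond the intervals. The 170 sites with a partner above 600 and up to 800 bp had a FoxP3 alone percentile of 89.3 (86.4 to 92.3), above both. Their FoxP3+GATA1 percentile was 92.0 (90.3 to 93.2). Median widths of the FoxP3+GATA1 peak were 636 bp (603 to 680) in the narrow class and 763 bp (725 to 787) in the wide class.

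**Figure D4:**
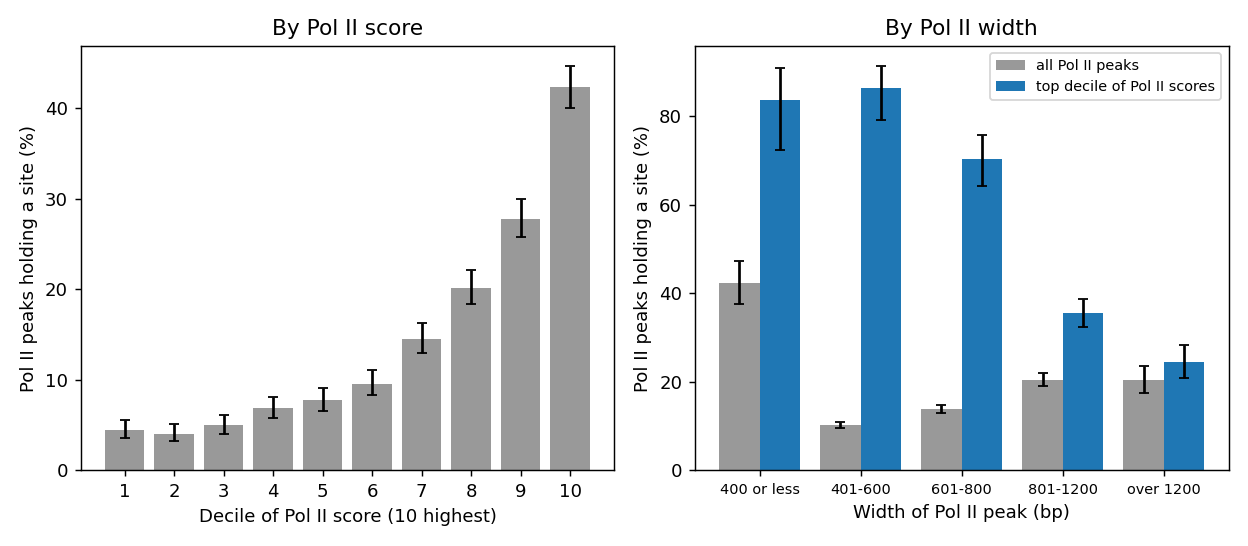
Percentage of Pol II peaks that hold a triple site, by decile of Pol II score (left) and by peak width (right, all Pol II peaks in grey and the top decile of scores in blue), with Wilson 95% intervals. The share rises with score to 42.3%, and within the top decile it falls with width from 83.6% and 86.3% in the 2 narrowest classes to 24.5% in the widest.

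FoxP3 peaks at triple sites were also narrow in the FoxP3 alone culture more often than with GATA1. Peaks of 400 bp or less made up 20.8% (19.3 to 22.4) of FoxP3 alone partners, 6.40% (5.51 to 7.43) of Pol II partners and 5.96% (5.10 to 6.96) of the FoxP3+GATA1 peaks. In the whole lists they made up 15.3%, 2.14% and 6.03%. The most similar sets were closer. Of the FoxP3 alone partners of peaks shared without Pol II, 17.0% were this narrow, a difference of 3.78 points (0.31 to 6.95). Of the Pol II partners of peaks found only with GATA1, 4.98% were, a difference of 1.43 points (0.04 to 2.78). Narrow FoxP3 alone partners ranked higher in their own list than wider ones, with a median percentile of 74.4 (72.1 to 76.4) against 59.9 (56.9 to 62.4). Only 14 sites were this narrow in all 3 lists. At the other extreme, the widest triple sites lay at chr14:8838033-8839693 (1661 bp), chr7:7249435-7251016 (1582 bp), chr12:103942100-103943577 (1478 bp), chr5:3479365-3480818 (1454 bp) and chr3:52071806-52073182 (1377 bp). Their FoxP3+GATA1 scores ran from 282.3 to 1283, so width alone did not place a site at the top.

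Triple sites lay in sparser Pol II surroundings than Pol II peaks without FoxP3. The next Pol II peak was within 5 kb for 14.1% (12.8 to 15.5) of the 2510 Pol II peaks that held a triple site and for 24.4% (23.6 to 25.2) of the 12246 that overlapped no FoxP3 peak. The triple sites were thus 10.3 points lower (interval of the difference -11.8 to -8.72). With a minimum score of 100 throughout, the difference was -6.79 points (-8.27 to -5.22). Median gaps to the next Pol II peak were 40.5 kb (38.2 to 43.6) and 19.2 kb (18.3 to 19.8). At matched Pol II score the share was lower, and the median gap larger, for peaks with a triple site in 10 of 10 deciles. In the top decile alone the interval of the difference in shares, -8.65 to 0.03 points, just included 0. Other Pol II peaks overlapped FoxP3 but held no triple site, and these include partners of peaks left out by the score limit. They had such a neighbour in 19.0% of cases (17.6 to 20.5) over all scores and in 26.5% (22.4 to 30.9) in the top decile. In that decile the share was 18.4% (15.8 to 21.3) with a triple site and 22.6% (19.5 to 26.1) without FoxP3. With Pol II scores of 3000 or more left out, the 3 shares there were 23.9% (20.0 to 28.4), 18.3% (15.7 to 21.2) and 22.8% (19.6 to 26.3) in the same order.

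Most triple sites had no other triple site close by. Joined across gaps of up to 12500 bp, 2404 of the 2499 sites (96.2%) were joined to no other, 43 groups held 2 and 3 groups held 3. Numbers expected from the density of sites alone were not computed. Counting every FoxP3+GATA1 peak, 328 triple sites (13.1%, 11.9 to 14.5) had another within 12500 bp. For peaks found only with GATA1 the share was 15.6% (14.1 to 17.3) at Pol II and 10.5% (9.6 to 11.5) off Pol II. The groups of 3 lay at chr8:107694511-107717647, chr5:149199905-149215751 and chr5:100580187-100597204. Their 9 sites had FoxP3+GATA1 scores between 224.8 and 472.6. Groups were ordered by number of sites and then by summed score. The first 2 among the groups of 2, at chr1:69588402-69595816 and chr1:69616706-69624989, held 4 sites with scores between 883.4 and 1805. They followed closely upon a peak left out by the score limit, at chr1:69584983-69586455. In all, 8 triple sites lay within 50 kb of a left-out peak.

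Some triple sites were strong for FoxP3 and weak for Pol II. At chr15:67726920-67727706 the FoxP3 percentiles were 97.9 with GATA1 and 91.6 without, and the Pol II score of 87.9 was at percentile 22.7. At chr13:95626720-95627726 scores of 2067 and 1763 for FoxP3 stood on a Pol II peak of 98.1, at percentile 33.1. The sites at chr4:100907479-100908300 and chr4:11975619-11976524 had FoxP3+GATA1 scores of 2285 and 979.2 and Pol II percentiles of 42.7 and 44.1. In these 4 the Pol II centre was within 130.5 bp of the FoxP3 centre. The fifth, the 1582 bp site on chromosome 7 named above, was different. Its Pol II centre was 1181 bp away, and its FoxP3 alone and Pol II partners had no base in common.

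The opposite pattern, a Pol II peak of high rank with weak FoxP3 peaks, was found among the 37 sites in the lowest decile of both FoxP3 lists. The site with the highest Pol II percentile (98.8) lay at chr7:106617049-106617605 and had FoxP3 scores of 125.1 with GATA1 and 233.1 without. It was followed by chr3:40886405-40886936 (Pol II percentile 98.2). In both the FoxP3 peak was inside a wide Pol II peak of 1313 or 1691 bp, with centres 315 and 353.5 bp apart, far above the median of 83.5 bp. Sites at chr1:56838667-56839519 and chr13:54285105-54285886 had Pol II percentiles of 95.9 and 92.6, and their centres were 96.5 and 96 bp apart. The fifth, on chromosome 18, had the lowest FoxP3+GATA1 score of all triple sites, 71.8, and a Pol II percentile of 88.7.

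Over the chromosomes, the share of triple sites was set beside the FoxP3 lists they were drawn from and beside Pol II. Chromosome 11, the one richest in Pol II peaks, held 140 triple sites, or 5.60% (4.77 to 6.57), beside 5.67% (5.21 to 6.17) of the FoxP3+GATA1 list and 6.29% (5.66 to 6.995) of the FoxP3 alone list. It held 9.36% (8.86 to 9.89) of Pol II peaks without FoxP3 and makes up 4.62% of the span covered by the lists. Of the Pol II peaks on chromosome 11, 9.54% (8.15 to 11.1) held a triple site, and on chromosome X 21.9% (17.6 to 26.9) did. Chromosome X held 67 triple sites, or 0.41 per Mb, where the autosomes had between 0.80 and 1.36 per Mb. This was 2.68% (2.12 to 3.39) of triple sites, beside 2.42% of the FoxP3+GATA1 list and 2.80% of the FoxP3 alone list. The difference on chromosome 11 between Pol II peaks with a triple site and without FoxP3 was -3.66 points (-4.65 to -2.56). In the top decile of Pol II score it was -2.63 points, with an interval of -5.59 to 0.20 that included 0. The share was nonetheless lower for peaks with a triple site in 10 of 10 Pol II deciles.

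**Figure D5:**
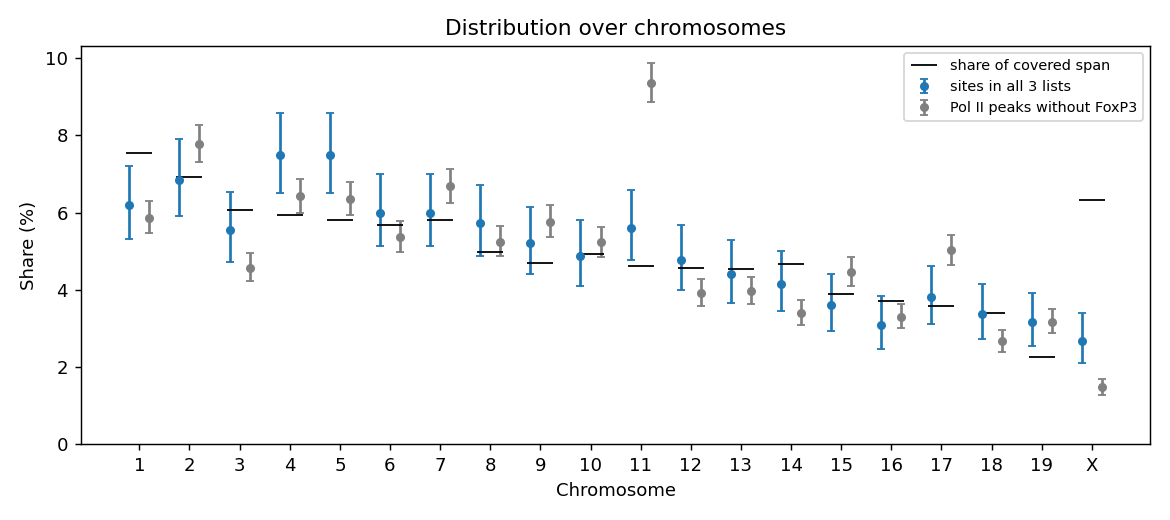
Share of the 2499 triple sites (blue) and of the 12246 Pol II peaks without FoxP3 (grey) on each chromosome, with Wilson 95% intervals, beside the share of the covered span (black bars). Chromosome Y, with no triple site, is not drawn. Chromosome 11 holds 5.60% of triple sites and 9.36% of the Pol II peaks without FoxP3, and on chromosome X both lie below the share of the span.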

How the data were processed

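Chromatin immunoprecipitation with sequencing was analysed in 4 samples of 1 library each. The tools listed in the submitters' processing notes are FastQC, Bowtie and MACS 1.4.0rc2, with mm8 as build. Their roles, filters and thresholds are not stated there. Each precipitated library has its own peak list, in which the authors deposited a score per peak, usually 10 times the negative log10 of a p-value in that caller's layout. The lists hold no counts, so depth is unknown.

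Overlaps, percentiles and shares were computed with pandas 2.3.3, numpy 2.4.6, statsmodels 0.14.6 and scipy 1.17.1 under Python 3.11.15. bedtools 2.31.1 gave the same 2499 sites. Medians carry order-statistic intervals, shares Wilson intervals and differences Newcombe intervals, all at 95%. No test across samples was possible. Tested on simulated data, the overlap code recovered all of 1013, 2534 and 4055 sites planted in 3 lists. The planted sites lay far apart with closely placed centres, so full recovery followed from the setting. The choice of a partner among crowded peaks was not tested.

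Named sites are the 10 with the highest lowest percentile, the 5 largest differences in percentile between the FoxP3 lists in each direction, the 5 strongest for FoxP3 with least Pol II and the reverse, the 5 widest, the 5 largest groups and those at the rule's edges. The sites and rules were chosen with earlier results of these data known. The GRCm38.p6 tables were not used for genes or sequence, since on 8 of 21 chromosomes peaks reach beyond their last gene.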

Additional observations from a re-analysis of the deposited data

How the results depend on the processing

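Read depth is unknown and limits every list's length and scores, and each group has 1 library. No paired analysis was possible because no group has a second library. Of 84 recomputed values, 72 stayed within the interval of the value reported (for the number of sites, within 1.5 times it). Counts, percentiles, distances and shares cannot be negative. A change of sign was possible only for correlations and differences, and none occurred. Some settings also leave a value untouched. Merging Pol II peaks kept the 2499 sites and all values between their FoxP3 lists, so the tally is no measure of robustness. The number of sites ran from 2181 to 2529. With scores of 100 or more in all lists, the median percentile of the FoxP3 alone partner was 67.8 and of the Pol II partner 74.4, rho between FoxP3+GATA1 and Pol II scores 0.45, the share of sites wholly inside the Pol II partner 32.5%, the share of top-decile Pol II peaks holding a site 45.6% and the share of sites with a second Pol II peak within 5 kb 9.49% (13.7% as reported). The difference from Pol II peaks without FoxP3 in having a neighbour within 5 kb was then -6.79 points. Percentiles were recomputed within the shortened lists. With centres within 250 bp, the median centre distances were 67.5 bp to FoxP3 alone and 73.5 bp to Pol II, and 35.7% of top-decile Pol II peaks held a site. With Pol II peaks merged across gaps of 500 bp, 12.1% of sites had a second Pol II peak within 5 kb and the difference was -7.18 points. Beyond these settings' own construction the cause was not tested. The contrast between narrow and wide top-decile Pol II peaks, 54.1 points, lay between 51.8 and 58.0 in the 7 alternatives. That contrast and the neighbour difference were added after seeing the data.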
